A study of Mus musculus with 20 samples.

Results

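Immunoglobulin transcripts, the products of B cells and plasma cells, were read in every library of macrophages and eosinophils sorted from mouse colon. The genes described here are those named as an immunoglobulin V gene (Igkv, Ighv or Iglv), the constant genes Igkc, Igha, Ighm, Iglc1, Iglc2 and Iglc3, and Jchain and Mzb1, provided that a value above 0 stood in at least 3 of the 20 libraries. Of 356 gene names that fit this pattern, 44 met the threshold, out of 50600 names in each table. They are 30 of 160 Igkv names, 3 of 185 Ighv names, all 3 Iglv names and the 8 other genes. The genes were thus selected on their names and on the presence of reads, without regard to group. Just outside it lay 23 names seen in 2 libraries, with 2 to 6 reads in all 20 libraries together, and just inside it lay 12 names seen in 3 libraries, with 3 to 11 reads.

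RNA was measured by CEL-Seq, which reads the 3′ end of transcripts. Macrophages from tumors (6 libraries), macrophages from naive colon (5 libraries), eosinophils from tumors (7 libraries) and eosinophils from naive colon (2 libraries) were sorted by flow cytometry from enzymatically digested tissue. All mice were wild-type C57BL/6. Tumors arose after a procedure named CAC in the labels, and naive mice are labelled as controls. The labels do not say whether libraries of a group came from separate animals, so p-values measure only the spread between these libraries, which may be technical. The sources used here do not describe the gates of the sort.

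An immunoglobulin consists of paired heavy and light chains. Each chain joins a V region, which varies between B cell clones and binds antigen, to a constant region, which sets the class of the heavy chain or the type of the light chain. On the mRNA the constant region lies at the 3′ end. Plasma cells of the intestinal wall mostly secrete IgA, whose heavy chain comes from Igha, as dimers held together by the J chain (Jchain). Mzb1 is a protein of the endoplasmic reticulum that helps B cells and plasma cells to assemble and secrete immunoglobulin. Ighm encodes the heavy chain of IgM, which naive B cells carry on their surface. Igkc encodes the constant region of kappa light chains, the main light chains of the mouse, and Iglc1, Iglc2 and Iglc3 those of the lambda chains.

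Depth ran from 1477255 to 8520874 reads per library. The sorted types carried their own markers. The summed level of 10 macrophage markers was 9950 to 14430 reads per 1000000 reads of the library (RPM) in macrophage libraries and 537 to 885 in eosinophil libraries, and that of 10 eosinophil markers was 7.86 to 70.9 in macrophage libraries and 826 to 9587 in eosinophil libraries. Markers of other cells were present too. The summed level of 14 B cell markers was 231 to 1465 RPM in tumor macrophages, 281 to 659 in naive macrophages, 557 to 1437 in tumor eosinophils and 706 to 1744 in naive eosinophils. One of the 14, Cd37, averaged 134 ± 83.2 RPM in tumor macrophages (SD, n = 6) and 960 ± 325 in tumor eosinophils (SD, n = 7), most of the eosinophil sum. The summed level of 7 neutrophil markers was 4469 to 13852 RPM in tumor eosinophils and 6324 to 11435 in naive eosinophils, most of it Retnlg, which averaged 8134 RPM in tumor eosinophils and 8842 in naive eosinophils. S100a8 averaged 164 RPM in tumor eosinophils and 5.38 in naive eosinophils. Macrophage libraries also fell apart by a pattern that crossed the groups. On the first principal component of 8807 genes other than the immunoglobulin genes, with group means removed (29.3% of the variance), tumor libraries 1 and 2 and naive libraries 1, 3 and 5 lay on one side (called set A here), and tumor libraries 3 to 6 and naive libraries 2 and 4 on the other (set B). The labels name no batch. Depth was 1477255 to 5956352 reads in set A and 5676284 to 7945096 in set B.

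The immunoglobulin genes took up to 7.61% of a library's reads, with higher means in macrophage than in eosinophil libraries and some overlap. In tumor macrophages the share was 0.924% at the lowest, 2.61% at the median and 7.24% at the highest, with a mean of 3.21 ± 2.47% (SD, n = 6). Naive macrophages had 1.83, 5.36, 7.61, 5.04 and 6.91% in libraries 1 to 5, a mean of 5.35 ± 2.24% (SD, n = 5). Tumor libraries 3 and 4, at 0.927 and 0.924%, lay below every naive library, whereas tumor libraries 1 and 2, at 4.98 and 7.24%, lay among the naive ones. The share in tumor eosinophils was 0.716% at the lowest, 1.29% at the median and 1.77% at the highest, with a mean of 1.21 ± 0.416% (SD, n = 7). Naive eosinophils had 0.754 and 0.449%. One tumor eosinophil library lay below the higher naive one and the others lay above both. Exact binomial 95% intervals were at most 0.0409 percentage points to either side of a share. They cover counting error only, since the reads are not known to be independent molecules, and are far narrower than the spread between libraries. Mitochondrial genes took 8.23 to 15.9% of reads in macrophage libraries and 15.2 to 35.2% in eosinophil libraries. With these genes left out of the total, the mean shares were 3.55% in tumor and 6.01% in naive macrophages. In tumor and naive eosinophils they were 1.58 and 0.756%. Fewer immunoglobulin-producing cells and less RNA per cell cannot be told apart in such bulk samples.

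**Figure D1:**
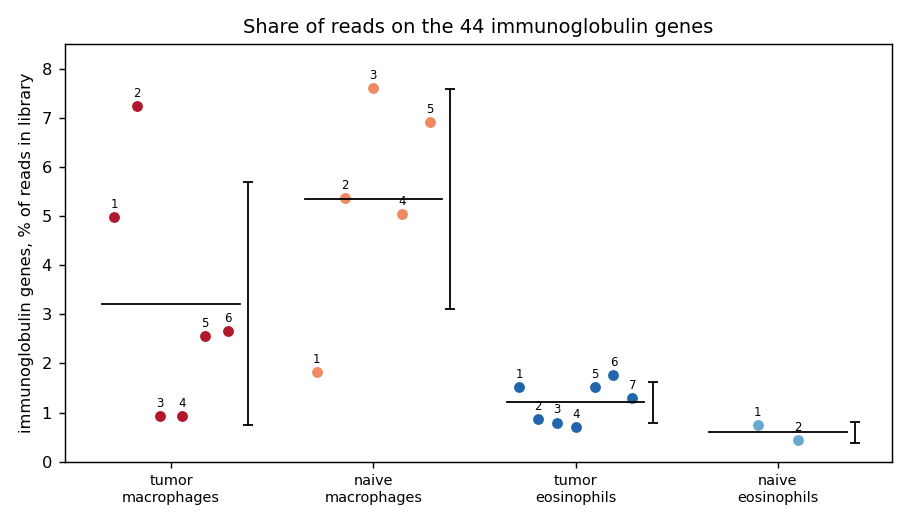
Share of each library's reads (percent, vertical axis) on the 44 immunoglobulin genes; points are libraries with their replicate number, lines are group means and bars ± SD. Tumor macrophages range from 0.924 to 7.24%, naive macrophages from 1.83 to 7.61%, tumor eosinophils from 0.716 to 1.77%, and the naive eosinophil libraries lie at 0.754 and 0.449%.

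Nearly all of these reads lay on constant genes. As a share of the 2757240 reads on the 44 genes, Igkc took 62.7%, Igha 32.3%, Jchain 3.19%, the 3 lambda constant genes 1.32%, Ighm 0.389% and Mzb1 0.0745%. These are shares of reads and not levels per length of transcript. The 36 V genes together took 437 reads, or 0.0158%. In GENCODE M21 (GRCm38) Igkc lies on chromosome 6 (chr6:70726435-70726966, plus strand), Igha (chr12:113254830-113260236) and Ighm (chr12:113418558-113422730) on the minus strand of chromosome 12, and Jchain (chr5:88519809-88527891) and Mzb1 (chr18:35647267-35649367) on the minus strands of chromosomes 5 and 18.

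V genes were hardly covered. Of the 720 combinations of a V gene and a library, 546 held no read, 101 held 1 read and 5 held 10 reads or more. Iglv1, the main V gene of mouse lambda chains, had the most reads. It had 3 reads at the lowest, 8 at the median and 25 at the highest in tumor macrophages, and 4, 29, 7, 12 and 3 reads in naive macrophages 1 to 5. Tumor eosinophils had 0 to 8 reads on Iglv1, with none in libraries 4 and 6, and both naive eosinophil libraries had none. That count of 0 allows up to 0.252 RPM over the naive eosinophil libraries together (3 reads of 11922227). The mean of naive macrophages for Iglv1, 2.16 ± 0.849 RPM (SD, n = 5), was 8.60-fold this bound. The bound covers counting error of the pooled reads only and not the spread between libraries, so it sets no lower limit on the group difference. For the naive eosinophil libraries singly, 3 reads stand for 0.402 and 0.674 RPM. The other lambda V genes had 5 reads (Iglv2) and 4 reads (Iglv3) in all libraries together.

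Among kappa V genes the leading one differed from library to library. It was Igkv14-111 with 2 of 5 Igkv reads in tumor macrophage library 1, Igkv17-121 with 6 of 29 in library 5, and Igkv4-61 with 6 of 29 in library 6. The leaders of tumor libraries 2, 3 and 4 were Igkv2-109, Igkv4-72 and Igkv17-127 with 2 or 3 reads, and those of naive libraries 1, 3 and 5 were Igkv4-55, Igkv5-39 and Igkv16-104 with 2 reads. In the libraries with the most V reads, Igkv6-17 led in naive macrophage library 2 with 7 of 41 Igkv reads. In naive library 4, whose 71 Igkv reads spread over 27 genes, Igkv15-101-1 and Igkv5-48 tied at 8. No kappa V gene made up a majority of Igkv reads in any macrophage library.

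Eosinophil libraries held 0 to 18 Igkv reads, and where there were several they often lay on 1 gene. All 16 Igkv reads of tumor eosinophil library 2 and 17 of 18 in naive eosinophil library 1 lay on Igkv15-101-1 (chr6:68479316-68479573, plus strand), which GENCODE M21 annotates as a V pseudogene. All 5 in tumor eosinophil library 4 lay on Igkv6-15. Tumor eosinophil libraries 3 and 7 had at most 2 reads on any Igkv gene, led by Igkv19-93 and Igkv4-55. Libraries 1 and 5 had 1 read on each of 3 and 4 Igkv genes, and tumor library 6 and naive library 2 had none. Heavy chain V genes had 17 reads in all. Ighv3-6 held 11 of these, every one in a macrophage library, and Ighv5-8 and Ighv3-1 held 3 each.

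Likeness between libraries was measured as the overlap of their V gene shares, for the 6 macrophage libraries with at least 20 V reads each (21 to 88 reads). It was 36.1 to 54.8% (median 45.5%) for the 7 pairs within a group and 40.0 to 56.4% (median 44.7%) for the 8 pairs of a tumor and a naive library. The ranges overlap almost fully. With so few reads a low overlap and thin sampling cannot be told apart.

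**Figure D2:**
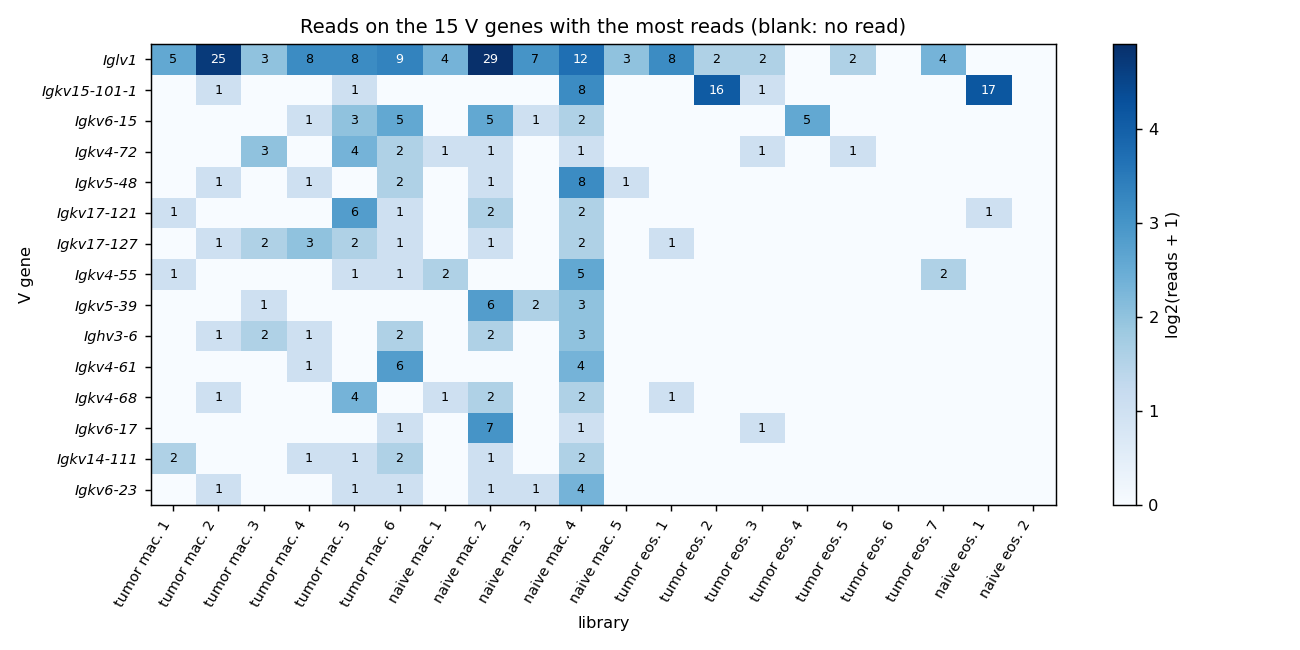
Reads (numbers, and colour as log2 of reads + 1) on the 15 V genes with the most reads, by library. Iglv1 has reads in 16 libraries with at most 29 in 1 of them, Igkv15-101-1 has 16 and 17 reads in eosinophil libraries, and most cells are blank.

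Lambda constant reads showed which light chain genes were read, since these genes differ in sequence. The last 120 coding bases of each gene before its stop codon, read from the GENCODE M21 transcripts (GRCm38, minus strand of chromosome 16), are shown because near-identical genes can exchange reads. Capitals mark positions at which the genes are not all alike.
Iglc1 (chr16:19061755-19061874): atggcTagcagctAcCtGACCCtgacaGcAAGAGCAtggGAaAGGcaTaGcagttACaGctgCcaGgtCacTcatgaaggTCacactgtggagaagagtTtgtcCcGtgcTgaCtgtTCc
Iglc2 (chr16:19198539-19198658): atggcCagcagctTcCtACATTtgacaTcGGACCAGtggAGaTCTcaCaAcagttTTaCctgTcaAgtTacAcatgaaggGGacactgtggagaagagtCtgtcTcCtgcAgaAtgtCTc
Iglc3 (chr16:19065368-19065487): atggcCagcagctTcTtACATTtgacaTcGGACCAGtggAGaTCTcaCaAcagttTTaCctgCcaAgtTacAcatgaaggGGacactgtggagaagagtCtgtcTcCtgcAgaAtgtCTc
Iglc2 and Iglc3 differ at 2 of these 120 bases (98.3% identity) and at 11 of 314 bases of the coding exon, so that their separate values are uncertain. Iglc1 differs from each of them at 38 of the 120 bases.

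In macrophages lambda reads made up 1.77 to 3.47% of light chain constant reads in tumor libraries (median 1.83%) and 2.69, 3.52, 1.80, 1.61 and 1.41% in naive libraries 1 to 5. The ranges overlap. Tumor eosinophils spread widely, with 2.75, 2.80, 1.57, 0.108, 0.595, 1.46 and 3.84% in libraries 1 to 7, and naive eosinophils had 0.396 and 1.02%. Library 4 of the tumor eosinophils held only 28 lambda reads among 25874 light chain reads, an exact binomial 95% interval of 0.0719 to 0.156%. Iglc1 held most lambda reads in all libraries but naive eosinophil library 2 (48.4%). Iglc3 was high in tumor eosinophil library 6, with 38.4 RPM against 0.808 to 4.55 in the 6 other tumor eosinophil libraries.

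In tumor against naive macrophages no immunoglobulin gene passed the test, although 7 of the 8 genes tested had lower fitted levels in tumors. Only 8 of the 44 genes passed the filter on low values, and the 36 V genes did not. By limma with Benjamini-Hochberg adjustment 0 of the 8 were called, where 17.1% of all 11520 genes tested were. At an unadjusted p under 0.05 there were 4 of the 8 with limma, where 3495 of all 11520 genes tested were. There were 2 with edgeR, 1 with DESeq2 and 7 with limma-voom, for which the number over all genes is not given here. None of these tools called any after adjustment. The median log2 change over the 8 was −1.07, against 0.03 over all genes tested. Of 5 neutrophil markers that passed the filter 3 were called higher, and all 7 summed to 78.3 to 557 RPM in tumor macrophages and 29.1 to 51.6 in naive macrophages. Of 4 T cell markers that passed it 1 was called lower, Cd4, which macrophages can also carry. It averaged 128 RPM in tumor macrophages and 463 in naive macrophages, most of the sum of all 8 (95.5 to 206 in tumor and 441 to 563 in naive libraries), while Trac averaged 6.37 RPM in tumor macrophages and 3.71 in naive macrophages. Their part in the result was not tested.

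Among them Jchain had 1040 normalised reads at the lowest, 3192 at the median and 8982 at the highest in tumor macrophages, and 2491, 8404, 11118, 8686 and 10568 in naive libraries 1 to 5. Its ranges overlapped because naive library 1 was low and tumor libraries 1 and 2 were high. The log2 change was −1.37 ± 0.52 (SE; limma adjusted p = 0.0878). Igkc had 17097, 50638 and 198933 normalised reads in tumor macrophages (lowest, median, highest), and 52254, 110555, 244407, 108987 and 204324 in naive libraries 1 to 5. Its log2 change of −1.27 ± 0.60 had an adjusted p of 0.169 (limma). For Igha the tumor libraries had 11572, 38106 and 85164 (lowest, median, highest), and naive libraries 1 to 5 had 23267, 76646, 100115, 76998 and 90841, a log2 change of −1.06 ± 0.52 (limma adjusted p = 0.181). Both genes were low in tumor libraries 3 and 4 and within the naive range in tumor libraries 1 and 2. The lambda genes had log2 changes of −1.25 (Iglc1, limma adjusted p = 0.0883), −1.02 (Iglc2, 0.128) and −1.09 (Iglc3, 0.157), and Mzb1 had −0.99 (0.170).

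Ighm went its own way. Tumor macrophages had 203, 602 and 913 normalised reads on Ighm (lowest, median, highest), and naive libraries 1 to 5 had 385, 539, 746, 395 and 777. The ranges overlap, and the fitted log2 change was 0.01 ± 0.32 (limma adjusted p = 0.989). Its sign turned when naive library 1 or 4 or tumor library 1, 2 or 6 was left out (−0.14 to −0.04).

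**Figure D3:**
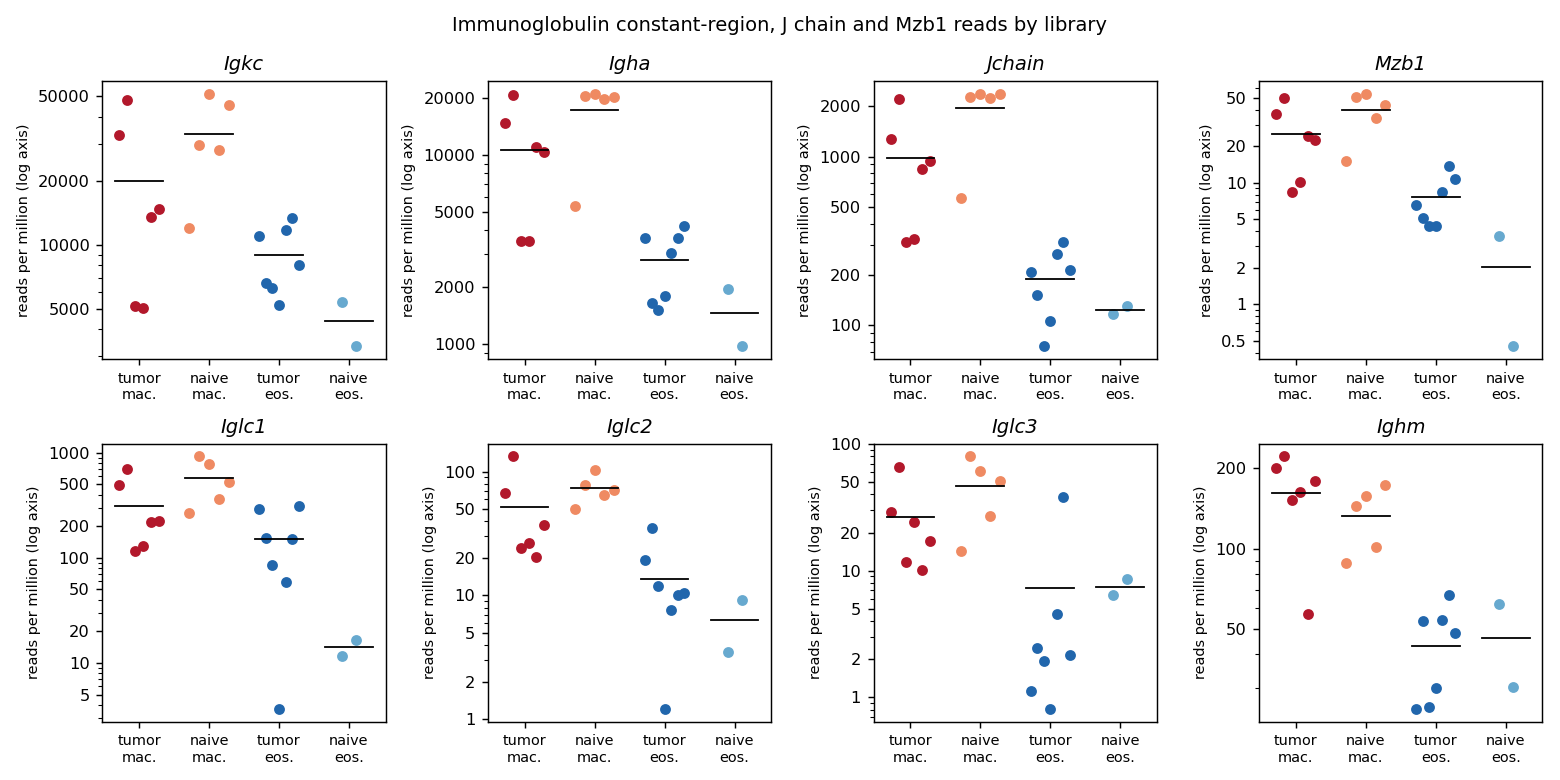
Reads per 1000000 (log axes) on 8 immunoglobulin genes in each library, by group; points are libraries and lines are group means. Igkc, Igha, Jchain, Mzb1 and the lambda genes lie lower in most tumor than naive macrophage libraries with overlapping ranges, Ighm does not, and both eosinophil groups lie lower than naive macrophages for Igha, Jchain and Mzb1.

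The macrophage comparison turned on single libraries and on the library sets. Without tumor library 2, 5 genes were called, all lower in tumors: Iglc2 (log2 change −1.39, limma adjusted p = 0.00806), Iglc1 (−1.57, 0.0182), Jchain (−1.70, 0.0233), Iglc3 (−1.45, 0.0326) and Igkc (−1.66, 0.0495). Without naive library 1 only Jchain was called (−1.76, limma adjusted p = 0.0215), and without tumor library 1 only Iglc1 (−1.47, 0.0465). The share of all genes called with a library left out is not given here, so these counts have no background. Within set B, with 4 tumor and 2 naive libraries, 7 of the 8 genes were called and all were lower, where 5.8% of 12146 genes tested were called lower. There the log2 changes of the called genes ran from −1.55 for Iglc2 (limma adjusted p = 0.00293) to −2.21 for Jchain (0.0109). Within set A, with 2 tumor and 3 naive libraries, none of the 8 was called by limma (4.21% of 12088 genes tested were) and all 8 log2 changes were above 0, from 0.023 to 0.49. With the set as a term in the fit none was called, and the log2 change of Jchain was −1.15 (limma adjusted p = 0.130). The difference between the sets was not tested, and these fits were chosen after seeing the data. The sets were also drawn from these same libraries. Set A took tumor libraries 1 and 2 and naive library 1, the ones whose removal gave calls above. The count within set B is thus no separate support for a tumor difference.

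The ratio of Igkc to Igha reads also followed the sets rather than tumor and naive. Set A libraries had 2.24 to 2.44 Igkc reads per Igha read, and set B libraries had 1.23 to 1.48. In set A this ratio was 2.24 and 2.34 in the tumor libraries and 2.25, 2.44 and 2.25 in the naive ones. Set B had 1.23 to 1.48 in tumor libraries and 1.44 and 1.42 in naive libraries 2 and 4. The sets did not overlap although the component had been computed without Igkc and Igha. Ighg1 and genes such as Cd79a and Irf4, which B cells or plasma cells express, stayed in the component. V reads per 100000 immunoglobulin reads were 5.34 to 17.9 in set A and 17.4 to 29.8 in set B. What the sets stand for was not tested.

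The ratio of Jchain to Igha reads separated tumor from naive macrophages in both sets. Jchain had 7.66 to 10.5 reads per 100 Igha reads in tumor libraries (median 9.06) and 10.7, 10.96, 11.1, 11.3 and 11.6 in naive libraries 1, 2, 3, 4 and 5. Every naive library lay above every tumor library, by a margin that was narrow for tumor library 2 at 10.5. It is a ratio of genes chosen with these data in view and was given no test.

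**Figure D4:**
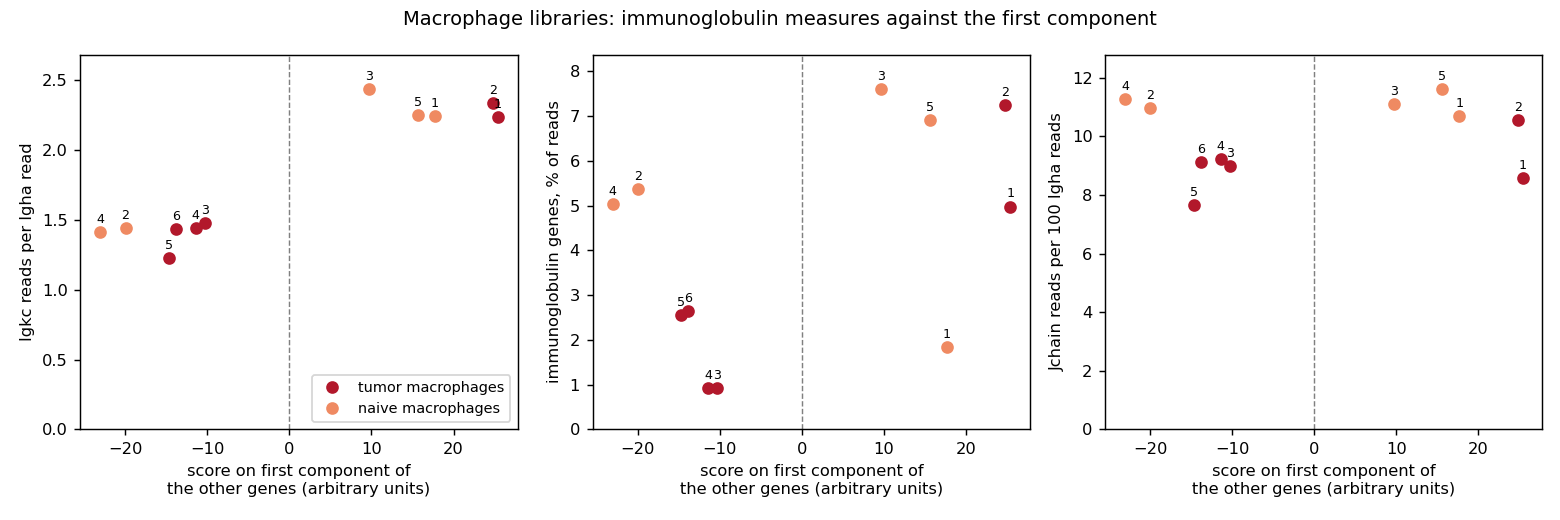
Igkc reads per Igha read, share of reads on the 44 genes, and Jchain reads per 100 Igha reads (vertical axes) in the 11 macrophage libraries against their score on the first component of the other genes (horizontal axis, arbitrary units; dashed line at 0). Libraries right of the line are set A, with 2.24 to 2.44 Igkc reads per Igha read, and those left are set B, with 1.23 to 1.48.

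In tumor against naive eosinophils no immunoglobulin gene passed the test either, and with 2 naive libraries only large differences could. Again 8 of the 44 genes passed the filter and limma called 0 of them, where 4.61% of 12967 genes tested were called. At an unadjusted p under 0.05 there was 1 with limma, where 2553 of all 12967 genes tested were. There was 1 with limma-voom, 3 with edgeR and 4 with DESeq2, for which the number over all genes is not given here. After adjustment DESeq2 alone called 1, Iglc1 (log2 change 3.21, adjusted p = 0.0437). DESeq2 also called more genes than limma over the whole table, 697 higher and 664 lower. A single call among 8 genes is thus no result about the immunoglobulin genes. The median log2 change over the 8 was 0.65, against 0.01 over all genes tested.

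Mzb1 had 18.6, 27.1 and 58.1 normalised reads in tumor eosinophils (lowest, median, highest), and 15.7 and 2.42 in naive eosinophils. The ranges do not overlap, and the lower naive value rests on 2 reads. The log2 change was 2.03 ± 0.63 (limma adjusted p = 0.0923), and without naive library 1 it was 3.17 (0.0329). Iglc1 had 15.4, 639 and 1329 in tumor eosinophils (lowest, median, highest), and 49.9 and 89.4 in naive eosinophils. Only tumor library 4 lay below the naive libraries, and without it the log2 change was 3.21 (limma adjusted p = 0.0136), against 2.46 (0.292) with it. Igkc had 22191, 34671 and 57039 normalised reads in tumor eosinophils (lowest, median, highest), and 23343 and 17874 in naive eosinophils, a log2 change of 0.81 ± 0.41 (limma adjusted p = 0.308). Igha, Jchain, Iglc2, Iglc3 and Ighm had log2 changes of 0.72, 0.29, 0.58, −1.42 and −0.28, with limma adjusted p from 0.406 to 0.781. Without naive library 1, Iglc2 turned to −0.24 and Ighm to 0.082.

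Genes of the IgG classes, which are not in the defined set, made up a varying part of the heavy chain reads. IgG made up 4.73, 49.7, 54.4, 10.5, 73.5, 48.5 and 43.8% of heavy chain constant reads in tumor eosinophil libraries 1 to 7, and 2.18 and 10.6% in naive eosinophils. Of the 7 tumor libraries, 5 lay far above both naive libraries, and libraries 1 and 4 did not. In macrophages IgG made up 5.79 to 25.3% in tumor libraries (median 10.5%) and 9.07, 3.17, 6.98, 2.74 and 6.29% in naive libraries 1 to 5. The gene that led differed: Ighg1 took 54.8% of heavy chain reads in tumor eosinophil library 5 and 23.0% in library 3, whereas Ighg2b took 41.0% in library 2.

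In tumor against naive eosinophils the log2 changes were 5.56 for Ighg2c (limma adjusted p = 0.0723), 3.77 for Ighg2b (0.0784) and 3.81 for Ighg1 (0.166), so none was called. DESeq2 called all 3, with adjusted p of 0.00124, 0.00431 and 0.0161. Over all genes DESeq2 called 697 higher and 664 lower, where limma called 4.61% in either direction. Without tumor library 1 Ighg2c was called by limma (adjusted p = 0.0391), and without tumor library 4 so was Ighg2b (0.0242). In macrophages 5 constant genes outside the defined set were tested, of which 1 rose, 1 fell and 3 were not called, where 8.5% of all genes rose and 8.59% fell. Ighg2c had 269, 605 and 2160 normalised reads in tumor libraries (lowest, median, highest), and 410, 24.4, 121, 76.9 and 467 in naive libraries 1 to 5. It rose by 2.46 ± 0.70 on the log2 scale (limma adjusted p = 0.0236), which moved to 0.0583, 0.0501 and 0.0568 without naive library 2, 3 or 4. In the set fits, chosen after seeing the data, Ighg2c was called within set A (2.82, limma adjusted p = 0.0136) and within set B (3.35, 0.00115). It was also called with the set as a term (3.10, limma adjusted p = 4.81e-05). Ighg1 had 447, 718 and 953 in tumor libraries (lowest, median, highest), and 1122, 1377, 4044, 1312 and 1481 in naive libraries 1 to 5, with no overlap. It fell by 1.25 on the log2 scale (SE 0.29, limma adjusted p = 0.00705). It was called within set B (−1.12, limma adjusted p = 0.00962) but not within set A (−1.12, 0.243). Ighg2b was called higher within set B (1.18, limma adjusted p = 0.0190) and with the set as a term (1.19, 0.0402), but not over all 11 libraries (0.84, 0.263). IgG genes resemble each other, and the sources used here do not say how reads shared between them were counted.

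**Figure D5:**
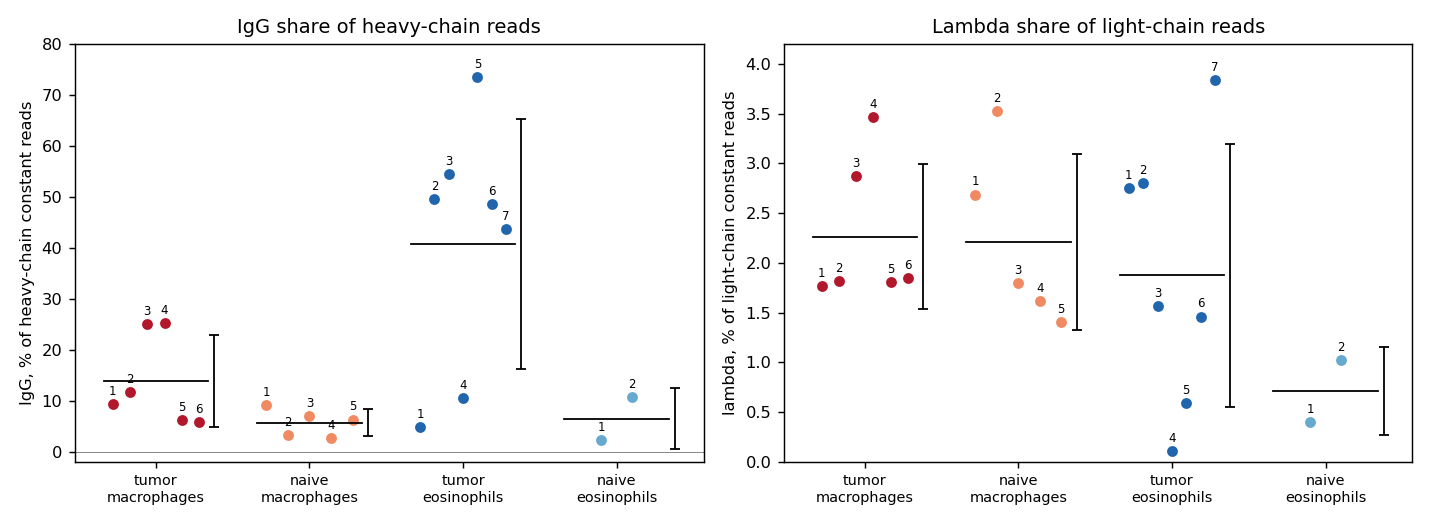
IgG share of heavy chain constant reads (left, percent) and lambda share of light chain constant reads (right, percent) by library; numbers are replicates, lines group means and bars ± SD. The 5 highest tumor eosinophil libraries lie at 43.8 to 73.5% IgG and the naive eosinophil libraries at 2.18 and 10.6%, while lambda shares run from 0.108 to 3.84%.

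Between the sorted types, most genes of the defined set that were tested were higher in macrophage than in eosinophil libraries. These comparisons used the recovered reads of all 20 libraries scaled together (trimmed mean of M values, TMM), and 10 of the 44 genes passed the filter, the 8 named above plus Iglv1 and Igkv15-101-1. In tumors 7 of the 10 were higher in macrophages, where 24.2% of 14973 genes tested were called higher. In naive colon it was also 7 of the 10, where 15.5% were called higher. None was lower in either comparison, where 18.9% of genes in tumors and 14.7% in naive colon were called lower. The filter used scaled reads, which are not given here. In unscaled reads Iglv1 reached 10 reads only in macrophage libraries (25, 29 and 12 reads) and had at most 8 in an eosinophil library. It likely entered through the group where it was high, so its calls add no support to these counts. Igkv15-101-1 reached 10 reads only in eosinophil libraries (16 and 17) and was not called. Over all genes tested the median log2 difference was 0.06 in tumors and 0.00 in naive colon; without TMM factors it was 0.47 in each. Of all calls, 56.1% were higher in tumors and 51.3% in naive colon with TMM, and 76.7 and 74.3% without. Without TMM 7 immunoglobulin genes were called higher in tumors and 8 in naive colon. Over all genes 5680 and 3696 were then called higher, against 3622 and 2319 with TMM. DESeq2's scaling gave a median of −0.18 and 44.1% of calls higher in tumors. Constant genes outside the defined set, the IgG genes among them, did not share this pattern in tumors. Of 6 tested, limma called 1 higher and 0 lower in macrophages, and 3 log2 differences lay below 0 and 3 above (median −0.04). Ighg1 averaged 194 RPM in tumor macrophages and 1238 in tumor eosinophils, with overlapping ranges. In naive colon 2 of the 6 were called higher and 0 lower.

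In tumors Ighm had the lowest limma adjusted p, and Jchain had ranges in RPM that just failed to overlap. Jchain had 314, 891 and 2183 RPM in tumor macrophages (lowest, median, highest), and 75.2, 207 and 312 in tumor eosinophils. Tumor macrophage libraries 3 and 4, at 314 and 323, lay next to the highest eosinophil library. RPM leaves out the TMM factors of the fit, which moved the median log2 difference over all genes from 0.47 to 0.06. The gap in Jchain may thus not hold on the fitted scale. The log2 difference of Jchain was 1.76 ± 0.44 (limma adjusted p = 0.00274). Ighm had 56.9, 171 and 222 RPM in tumor macrophages (lowest, median, highest), and 24.9, 48.1 and 66.7 in tumor eosinophils. Only macrophage library 5 reached into the eosinophil range, and the log2 difference was 1.47 ± 0.30 (limma adjusted p = 0.000431). Igha was 1.33 higher on the log2 scale (limma adjusted p = 0.0174), Iglc2 1.61 (0.0208) and Iglc3 2.36 (0.00407). Igkc was not called, at 0.34 ± 0.48 (limma adjusted p = 0.595), nor was Iglc1, at 1.11 (0.217).

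Several of these calls rested on few libraries. Without tumor macrophage library 1 or 2 only 3 of the 10 genes were called, and Igha and Iglc2 were lost (limma adjusted p from 0.0560 to 0.0762). Without library 2 Igkc turned to −0.10. The calls of Mzb1 (1.144, limma adjusted p = 0.0456) and Iglv1 (1.36, 0.0494) were marginal. Mzb1 lost its call without any 1 of 12 libraries (tumor eosinophils 1 to 5, naive macrophages 2 to 4, tumor macrophages 1, 2, 5 and 6), with limma adjusted p from 0.0570 to 0.151. Iglv1 lost it without any 1 of 14 libraries (both naive eosinophils, tumor eosinophils 2 to 6, naive macrophages 1, 3 and 4, tumor macrophages 1, 4, 5 and 6), with limma adjusted p from 0.0561 to 0.109.

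In naive colon the fitted differences of the called genes ran from 2.31 for Igkc to 4.71 for Iglc1 on the log2 scale. Mzb1 had 15.1, 51.1, 54.2, 34.1 and 44 RPM in naive macrophages 1 to 5, and 3.61 and 0.449 in naive eosinophils. There was no overlap, and the log2 difference was 4.10 ± 0.68 (limma adjusted p = 6.17e-05). Igha had 5341, 20513, 21099, 19707 and 20261 in naive macrophages 1 to 5, and 1942 and 971 in naive eosinophils, a log2 difference of 3.00 ± 0.66 (limma adjusted p = 0.00114). Jchain had 572, 2249, 2343, 2223 and 2357 in naive macrophages and 117 and 130 in naive eosinophils, and differed by 3.31 ± 0.67 (limma adjusted p = 0.000512). Naive macrophage library 1 was the lowest for each of these genes and still lay above both eosinophil libraries.

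Iglc1 (4.71, limma adjusted p = 0.00167), Iglv1 (0.00329, against no read in naive eosinophils), Iglc2 (3.11, 0.00568) and Igkc (2.31, 0.0183) were also called in naive colon. With limma-voom Jchain and Igha stayed called, and Mzb1 (adjusted p = 0.191), Iglc1 (0.0567), Iglc2 (0.107), Igkc (0.128) and Iglv1 (0.179) did not. Igkc lost its call without naive eosinophil library 1 or 2 (limma adjusted p = 0.0714 and 0.164), and Iglc2 without library 1 (0.140). Ighm (1.07, limma adjusted p = 0.0796) and Iglc3 (1.89, 0.137) were not called, though Ighm passed without tumor macrophage library 5 (0.0386) and Iglc3 without tumor eosinophil library 6 (0.0421).

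Whether the tumor effect differed between the sorted types was tested directly. Of the 10 genes, limma called 1, Mzb1, with a difference between the tumor effects in macrophages and in eosinophils of −2.96 on the log2 scale (SE 0.82, adjusted p = 0.0428). Of all 14973 genes tested, 4.17% were called. Iglc1 (−3.60, limma adjusted p = 0.118), Igkc (−1.97, 0.218) and Igha (−1.67, 0.254) were not, though Iglc1 passed without tumor eosinophil library 4 (−4.36, limma adjusted p = 0.00323). The Mzb1 call was lost without any 1 of 10 libraries (naive eosinophil 2, tumor eosinophil 7, naive macrophages 2 to 5, tumor macrophages 3 to 6), with limma adjusted p from 0.0533 to 0.494, the last without naive eosinophil library 2. Among the IgG genes Ighg1 was called (−4.96 ± 1.39, limma adjusted p = 0.0443), and lost the call without any 1 of 16 libraries (limma adjusted p from 0.0552 to 0.163), all but tumor eosinophils 1, 2, 4 and 5.

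Genes that plasma cells use to make and secrete antibody were followed as a list of 21. In tumor against naive macrophages 18 of them passed the filter, 1 rose, 4 fell and 13 were not called, where 8.5% of all genes tested rose and 8.59% fell. The median log2 change was −0.40, against 0.03 over all genes tested. Irf4, a transcription factor of plasma cells that macrophages also express, fell by 1.24 on the log2 scale (limma adjusted p = 0.00824). Tumor libraries had 36.8, 54.2 and 102 normalised reads (lowest, median, highest), and naive libraries 1 to 5 had 116, 128, 189, 191 and 94.1, with tumor library 2 just above the lowest naive library. Ccr10, the chemokine receptor of IgA plasma cells, fell by 1.52 (limma adjusted p = 0.0105). Herpud1, of the endoplasmic reticulum stress response, fell by 0.69 (0.0192), and Slamf7, a surface receptor of plasma cells and macrophages, fell by 0.54 (0.0496), a call that was lost without any 1 of naive libraries 1 to 5 or tumor libraries 1 to 5 (limma adjusted p from 0.0546 to 0.112). Within set A none of these 4 was called, with log2 changes of −0.60 for Irf4 (limma adjusted p = 0.398), −0.89 for Ccr10 (0.375), −0.43 for Herpud1 (0.190) and −0.89 for Slamf7 (0.0690). Within set B Herpud1 (−0.90, limma adjusted p = 0.0659) and Slamf7 (−0.32, 0.365) were not called either. Sdc1, the plasma cell surface proteoglycan CD138 that epithelium also carries, rose by 1.19 (limma adjusted p = 0.00243), and was not called within set A (0.95, 0.0810). Of 7 epithelial markers 3 were called higher, and together they had 791 to 1352 RPM in tumor macrophages and 211 to 1465 in naive macrophages. Their part in the Sdc1 result was not tested. Tnfrsf17, the plasma cell receptor BCMA, did not pass the filter. It had 1.43 to 8.29 normalised reads in tumor macrophages and 8.92 to 25.7 in naive macrophages, with no overlap.

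B cell markers were followed as a list of 14. In tumor against naive macrophages 0 of 14 were called by limma, where 17.1% of all genes were. Of the 14, 0 had an unadjusted p under 0.05, where 3495 of all 11520 genes tested did. The median log2 change of the 14 was 0.35. Cd79a, a part of the B cell receptor, had 157, 693 and 1703 normalised reads in tumor macrophages (lowest, median, highest), and 171, 407, 919, 347 and 707 in naive libraries 1 to 5. Tumor libraries 1, 2 and 6 were the highest of the 11, at 1486, 1703 and 1119. Ighd, the IgD heavy chain of naive B cells, was likewise highest in tumor libraries 1, 2 and 6 (107, 207 and 192). Between the sorted types 11 of 14 B cell markers were higher and 2 lower in macrophages than in eosinophils in tumors, where 24.2% of all genes were called higher and 18.9% lower, with a median log2 difference of 2.42. The 2 lower ones, Bank1 (an adaptor of B cell signalling; −1.94, limma adjusted p = 1.97e-05) and Cd37 (a tetraspanin; −3.42, 1.09e-07), were also lower in naive colon. The part of B cells in the immunoglobulin differences was not tested.

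Between the sorted types 13 of the 20 plasma cell genes tested were higher in macrophages in tumors and 1 was lower, and in naive colon 13 were higher and 2 lower. Of all genes, 24.2% were called higher and 18.9% lower in tumors, and 15.5% higher and 14.7% lower in naive colon. Prdm1, a transcription factor of plasma cells that macrophages also use, was 3.33 higher on the log2 scale in tumors (limma adjusted p = 3.02e-10) and 4.34 higher in naive colon (5.49e-09). Sec11c, a part of the signal peptidase, was lower in macrophages (−0.79, limma adjusted p = 0.00724 in tumors and −1.13, 0.0141 in naive colon), as was Fam46c in naive colon (−1.74, 0.000308). Both calls in naive colon were lost without naive eosinophil library 2 (limma adjusted p = 0.267 and 0.0752). Of the receptors for IgG, several were higher in macrophages: Fcgr1 by 5.23 in tumors and 5.67 in naive colon (limma adjusted p = 9.86e-10 and 2.86e-07), Fcgr4 by 3.25 and 6.03 (3.61e-09 and 2.10e-10) and Fcgr2b by 3.06 in tumors (6.79e-10). Fcgr3 was 1.03 higher in tumors (limma adjusted p = 0.000228) but not called in naive colon (−0.47, 0.261). Slamf7 was 5.76 higher in naive colon (limma adjusted p = 1.20e-08). The tumor effects in macrophages and in eosinophils differed for Fcgr4 (−2.79, limma adjusted p = 0.00267), Fcgrt (−2.49, 0.0240), Fam46c (1.69, 0.0190) and Fcgr3 (1.4997, 0.0200), the last 3 no longer called without naive eosinophil library 2 (limma adjusted p = 0.479, 0.465 and 0.207).

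In eosinophils 0 of the 16 plasma cell genes that passed the filter were called by limma in tumor against naive libraries, where 4.61% of all genes were. Before adjustment 7 of the 16 had a limma p under 0.05, where 2553 of all 12967 genes tested did. Among B cell markers Bank1 fell by 1.63 (limma adjusted p = 0.00645), and the 12 others that passed the filter were not called. Among receptors that bind immunoglobulin, Fcgr4, a receptor for IgG, rose by 3.27 in tumor eosinophils (limma adjusted p = 0.00945). It had 24.8, 59.2 and 109 normalised reads in tumor eosinophils (lowest, median, highest), and 3.48 and 7.25 in naive eosinophils. The call was lost without naive library 1 or 2 (limma adjusted p = 0.0665 and 0.0789). Of 8 macrophage markers that passed the filter 2 rose, C1qb by 2.1 and C1qc by 1.94 (limma adjusted p = 0.0177 and 0.0218), and 1 fell. The 10 macrophage markers summed to 537 to 797 RPM in tumor eosinophils and 667 to 885 in naive eosinophils, and their part in the Fcgr4 result was not tested. C1qb, C1qc and Bank1 lost their calls without naive library 2 (limma adjusted p = 0.297, 0.334 and 0.118). Fcgr4 also rose in tumor macrophages, by 0.43 (limma adjusted p = 0.0400), a call lost without any 1 of naive libraries 1, 2, 3 and 5 or tumor libraries 1, 3, 4, 5 and 6 (limma adjusted p from 0.0522 to 0.102). Fcgrt, the neonatal Fc receptor that recycles IgG, fell there by 1.53 (limma adjusted p = 5.31e-06), with 136, 190 and 227 normalised reads in tumor libraries (lowest, median, highest) and 492 to 573 in naive libraries. The ranges do not overlap. Pigr, which carries IgA across epithelium, had 245 to 505 normalised reads in tumor macrophages and 109 to 583 in naive macrophages.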

How the data were processed

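The submitters' processing notes list DESeq2 1.14.1, HTSeq 0.6.1, Bowtie2 2.2.6, TopHat2 2.1.0, Trim Galore and FastQC 0.11.5, with the build GRCm38.p5, in no stated order. Settings, strand, handling of reads shared by similar genes and the combination of the 3 technical replicates per sample (different primer pools, per the labels' protocols) are stated nowhere in the sources used here. The authors deposited 1 table per sorted type with a normalised signal per gene and library. All 374526 non-zero values were whole multiples of the value of 1 read (within 0.1 read), so read counts and depth were recovered from the deposited values.

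Genes were chosen by name and presence, with earlier results of these data known, as were all lists. Shares are of all recovered reads. For tumor against naive, log2(normalised value + 1) was fitted per sorted type with limma 3.58.1 (R 4.3.3, two-sided, trend), keeping genes that reached 10 in as many libraries as the smaller group has. Sorted types were compared on recovered reads of all libraries after TMM scaling (edgeR 4.0.16), keeping genes at 10 or more in at least 2 libraries; these comparisons share libraries with those of tumor against naive. Log2 changes understate those of low genes. P-values were adjusted by Benjamini-Hochberg over each whole table of tested genes and called under 0.05. The 27 entries named by a bare number, at most 0.132% of a library's reads, were not tested. Named were the 8 constant, Jchain and Mzb1 genes, every Iglv gene, the leading Igkv and Ighv genes of each library and group (3 per group), called members of each fit (up to 6 per direction) and called genes of the other lists (up to 4 per direction). Genes of other lists named beside them were chosen after their values were seen. The fit was tested on simulated counts. Alternatives were edgeR, DESeq2 1.42.0, limma-voom, other pseudocounts, filters and scalings, a replicate block and each library left out. Tables and plots used Python 3.11.15, pandas 2.3.3, scipy 1.17.1 and matplotlib 3.10.9. All 44 names matched GENCODE M21 (GRCm38), 2 of them (Igkv15-101-1 and, by 1 of its entries, Ighv5-8) to pseudogenes.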

Additional observations from a re-analysis of the deposited data

Results flagged for a closer look

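In 5 cases a single library stood apart from the others of its group, among 54 combinations of a value and a group that were examined, where chance alone flags about 1 in 20. Tumor macrophage library 2 had 272.2 normalised reads on Iglc3, next to 115.4 in the nearest library, and 8434 on Ighg2b, next to 3281. Naive macrophage library 3 had 4044 on Ighg1, next to 1481. Tumor eosinophil library 5 had 27538 on Ighg1, next to 3802, and tumor eosinophil library 6 had 163.4 on Iglc3, next to 19.7. The tumor effects in macrophages and in eosinophils differed by test for Mzb1 (−2.96 on the log2 scale) and Ighg1 (−4.96), with macrophages minus eosinophils, and both calls depended on single libraries.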

How the results depend on the processing

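Of 1936 values for single genes under other settings, 1743 kept their direction and their side of the threshold, 140 lost a call, 35 gained one and 18 changed sign. Leaving out 1 library at a time gave 0 to 5 immunoglobulin genes called in tumor against naive macrophages, 0 to 1 in eosinophils, 3 to 7 and 5 to 8 between macrophages and eosinophils in tumors and in naive colon, and 0 to 2 for the difference of tumor effects. The macrophage count was 7 within set B. In naive colon limma-voom called 2 between the sorted types. For the difference of tumor effects, a pseudocount of 10, no filter, edgeR and limma-voom each gave 0 and DESeq2 gave 2. Except where stated above, the share of all genes called under these settings, the replicate block included, is not given here. The causes were not tested.

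Replicate numbers did not pair the tumor and naive macrophage libraries (correlations of same-numbered deviations −0.61 to 0.32). The 2 eosinophil pairs had 0.32 and 0.35, which are not independent, since 2 naive libraries deviate from their mean in opposite ways. Same-numbered macrophage and eosinophil libraries had −0.22 to 0.37 in tumors, and 0.03 and 0.05 in naive colon. Whether a shared number marks 1 animal is not known here, and the comparisons between sorted types used no pairing in the main fit. With the replicate block 3 genes were called in eosinophils, against 0 without it, and DESeq2 called 1. The block left the macrophage count at 0 and the counts between sorted types at 7 and 7. For the difference of tumor effects the block called 1 gene, Iglc1 in place of Mzb1.

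Within set A the macrophage changes turned to 0.23 (Igkc), 0.25 (Igha), 0.14 (Iglc1), 0.25 (Iglc2), 0.14 (Iglc3), 0.023 (Jchain) and 0.21 (Mzb1). Ighm in macrophages turned to −0.039 with the block, −0.038 with limma-voom and −0.076 within set B. With 1 library left out it ran from −0.14 to 0.29 in macrophages and from −0.65 to 0.082 in eosinophils, Iglc2 ran from −0.24 to 1.41 in eosinophils, and Igkc ran from −0.10 to 0.60 between the sorted types in tumors. The median V gene overlap of same-group pairs was 34.3% over all libraries with V reads and 63.1% by cosine. It was 96.2% on V genes with at least 10 reads in a library, which are only Iglv1 and Igkv15-101-1. So few genes nearly fix a high overlap, and pairs of different groups had 88.9%. On constant genes, Jchain and Mzb1 the same-group median was 87.1%. Group means of the read share stayed within 1 SD. All V genes but Iglv1 and Igkv15-101-1 had too few reads to pass the filter of any comparison, and 2 naive eosinophil libraries limit every eosinophil contrast.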

Other observations

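J segments, which join V to constant regions, held 0 to 1.01 RPM (reads per 1000000 reads) in tumor macrophages, 0.402 to 1.35 in naive macrophages, none in tumor eosinophils and 0 to 0.225 in naive eosinophils (12 genes summed). None passed the filter. Of the immunoglobulin genes only Jchain has a promoter window (250 bases before to 50 after its start) in the RefSeq promoter table for GRCm38.p6. The octamer motif of immunoglobulin promoters (ATGCAAAT, on either strand) was not found in that window, and 1.74% of all 32851 windows hold it. Measured by the shares of constant genes, Jchain and Mzb1, 12 of the 20 libraries were most like a library of their own group, and the likest pair were naive macrophage libraries 2 and 4 at 98.6% overlap.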
